A study of Homo sapiens with 12 samples.

Results

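A set of 9 genes of epidermal adhesion to the basement membrane was followed through RNA sequencing libraries of HaCaT cells, a spontaneously immortalised human keratinocyte line: LAMA3, LAMB3, ITGA2, ITGA3, ITGA5, ITGA6, ITGB1, ITGB4 and COL17A1. They were chosen by symbol, with earlier results of these data known, so the shares and medians set against all genes below are descriptive only. All 9 had a row among the 22545 symbols of the deposited count table. All 9 passed the filter on low counts, together with 14207 genes in all. The 12 libraries fell into 4 groups of 3: cells given M5 and lefamulin, cells given M5 and retapamulin, cells given M5 alone, and untreated cells. All groups carry the wild-type label for genotype. M5 commonly names a cytokine cocktail used to model psoriatic keratinocytes; the labels do not list what it held, and give no doses, times or solvent. Both compounds are antibiotics of the pleuromutilin class, which share a tricyclic core and carry different side chains, and it is not known if they were given at matched doses. The cells are 1 line in monoculture, and the labels do not say whether the libraries of a group came from separate cultures.

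Basal keratinocytes hold to the basement membrane through hemidesmosomes, in which integrin alpha-6 beta-4 and collagen XVII span the membrane and plakins tie them to keratin filaments. Their main ligand outside the cell is laminin-332, a trimer whose alpha-3 and beta-3 chains are encoded by LAMA3 and LAMB3. A separate set of receptors, integrins alpha-2 beta-1, alpha-3 beta-1 and alpha-5 beta-1, binds collagen, laminin and fibronectin and connects to actin at focal adhesions. In psoriatic and wounded epidermis the distribution of these integrins is known to change.

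The windows around the annotated transcription starts of the 4 members with the largest rise after retapamulin are shown. They run from 250 bases before to 50 bases after the start, come from RefSeq (GRCh38.p14) and are written 5′ to 3′ on the strand of the gene. LAMA3 lies at chr18:23872770-23873069 (plus strand), LAMB3 at chr1:209651325-209651624 (minus strand), ITGA5 at chr12:54419217-54419516 (minus strand) and ITGA2 at chr5:52989102-52989401 (plus strand). Capitals mark matches on either strand to TGANTCA, the core of AP-1 sites, or to GGAATG, the core of TEAD sites.
LAMA3: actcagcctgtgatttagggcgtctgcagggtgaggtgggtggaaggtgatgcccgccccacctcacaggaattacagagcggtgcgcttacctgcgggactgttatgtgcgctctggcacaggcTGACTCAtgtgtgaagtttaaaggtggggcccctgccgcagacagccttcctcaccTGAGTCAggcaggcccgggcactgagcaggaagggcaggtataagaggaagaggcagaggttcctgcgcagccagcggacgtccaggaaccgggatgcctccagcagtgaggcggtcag
LAMB3: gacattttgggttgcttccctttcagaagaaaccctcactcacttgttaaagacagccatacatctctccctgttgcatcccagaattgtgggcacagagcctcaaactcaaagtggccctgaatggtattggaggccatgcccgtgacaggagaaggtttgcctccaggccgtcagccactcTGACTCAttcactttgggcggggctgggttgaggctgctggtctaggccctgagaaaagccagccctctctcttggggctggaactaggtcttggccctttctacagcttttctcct
ITGA5: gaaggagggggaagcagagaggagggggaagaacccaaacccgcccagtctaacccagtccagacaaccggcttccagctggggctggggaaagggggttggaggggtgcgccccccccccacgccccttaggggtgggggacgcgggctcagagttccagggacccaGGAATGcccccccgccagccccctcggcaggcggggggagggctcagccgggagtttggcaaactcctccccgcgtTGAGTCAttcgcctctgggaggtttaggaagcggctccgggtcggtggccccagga
ITGA2: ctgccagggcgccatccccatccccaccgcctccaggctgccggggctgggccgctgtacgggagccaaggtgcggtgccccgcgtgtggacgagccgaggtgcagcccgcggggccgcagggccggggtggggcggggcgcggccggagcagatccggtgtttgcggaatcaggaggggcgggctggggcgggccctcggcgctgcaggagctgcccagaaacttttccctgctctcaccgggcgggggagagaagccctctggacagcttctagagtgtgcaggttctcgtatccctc
In these letters TGACTCA stood at position 126 and TGAGTCA at position 182 of the LAMA3 window, TGACTCA at position 184 of the LAMB3 window, and TGAGTCA at position 245 of the ITGA5 window, counted from 1 at the 5′ end. GGAATG was found once, at position 169 of the ITGA5 window, and no match overlapped another. ITGA2, the gene with the largest change after the compounds, had neither motif in its window.

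RefSeq windows were matched for 7 of the 9 genes, and not for ITGA3 and ITGB4. TGANTCA was found in 3 of these 7, against 7.71% of all 35116 windows of the table. Those windows were not limited to the genes tested here, so this share and the following ones are not a matched background. GGAATG was in 1 of 7, against 14% of all windows. The NF-kB pattern was in 0 of 7, against 1.91%, and TTCNNNGAA, a pattern of STAT sites, was in 0 of 7, against 7.66%. GGGCGG, the core of SP1 sites, was in 5 of 7, against 45%, and is left in lower case above. A match of letters is not a bound site, and these windows miss enhancers and other starts. In the ITGB1 window the letters after the annotated start open directly with atg, the codon that begins a protein. They follow the letters ag, which commonly end an intron. This window may therefore lie at a coding exon and not at the main promoter of ITGB1. The ITGB1 window is counted among the 7 searched, and its lack of a match says nothing about that promoter. The LAMA3 window covers only part of the starts of this gene: it holds the starts of annotated transcripts of 5671 and 5007 bases in GENCODE v29, which lie 183 and 184 kb after the first start, that of a transcript of 10661 bases. Counts per gene do not separate these transcripts.

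Libraries held 35110519 to 37520999 counts, and the 9 genes together took 0.613% to 0.620% of a lefamulin library, 0.778% to 0.784% of a retapamulin library, 0.359% to 0.368% of an M5 library and 0.243% to 0.260% of an untreated library. The lowest count of a member in a library was 1370, for ITGA5 in an untreated library. The 6 keratinocyte markers summed to 1531 to 1543 CPM in lefamulin, 1608 to 1646 CPM in retapamulin, 1387 to 1434 CPM in M5 and 2271 to 2325 CPM in untreated libraries. Among them KRT5 lay between 424 and 1680 CPM and KRT14 only between 0.413 and 9.03 CPM, and CDH1 and TP63 were present in all 12 libraries. Markers of other cell types were mostly near 0: the highest value in any library was 0.0301 CPM for PECAM1 and PTPRC, 0.050 CPM for COL1A2 and 0.0553 CPM for MLANA. Exceptions were CDH5, which made up nearly all of an endothelial sum of 118 to 123 CPM in lefamulin, 99.8 to 115 CPM in retapamulin, 117 to 122 CPM in M5 and 14.6 to 16.7 CPM in untreated libraries, and CD68, which led a leucocyte sum of 39.4 to 42.8, 74.7 to 84.4, 29.8 to 31.0 and 11.9 to 13.9 CPM in the same order of groups. COL1A1 led a fibroblast sum of 15.1 to 16.9, 9.04 to 11.1, 5.25 to 6.68 and 7.15 to 7.94 CPM, and the melanocyte sum stayed at or under 2.44 CPM. The part of these genes in the results was not tested. In a bulk library fewer cells of a kind and less RNA per cell cannot be told apart.

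M5 against untreated cells asks what the cytokine mix does to the adhesion genes. All 9 genes rose with M5, the laminin chains and integrin alpha-6 the most and integrins alpha-3 and beta-1 the least. Of all genes tested 55.2% were called in this comparison, 28.3% as higher and 26.9% as lower, and in 59.2% the groups did not overlap, so a call by itself is common here. Of the 9 genes 3 rose at least 2-fold, against 5.07% of all genes tested, and the median log2 fold change of the 9 was 0.76, against -0.02 over all genes. On library totals alone the median of all genes lay at -0.14, and rises made up 31.5% of all calls in place of 51.3%.

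LAMB3, the beta-3 chain of laminin-332, had 783, 735 and 741 CPM in the M5 libraries, against 298, 306 and 296 CPM in the untreated libraries. Every M5 library was above every untreated one, and the log2 fold change was 1.33 (SE 0.03, edgeR adjusted p = 8.8e-22). LAMA3, the alpha-3 chain, had 262, 253 and 259 CPM with M5 and 131, 117 and 134 CPM in untreated cells, a log2 fold change of 1.02 (SE 0.04, edgeR adjusted p = 3.3e-17). The fold changes were 2.03 for LAMA3 and 2.51 for LAMB3, and neither gene's groups overlapped.

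ITGA6, the laminin-binding alpha subunit of the hemidesmosome, had 507, 505 and 520 CPM with M5, against 251, 215 and 250 CPM in untreated cells (log2 fold change 1.10, SE 0.04, edgeR adjusted p = 3.6e-17). ITGB4, its beta partner with the long cytoplasmic tail that binds plectin, had 425, 416 and 412 CPM with M5, against 333, 327 and 314 CPM in untreated cells (0.36, SE 0.03, edgeR adjusted p = 2e-09). The partners of this receptor therefore rose by different amounts, without overlap between M5 and untreated libraries for either. COL17A1, the transmembrane collagen of the hemidesmosome, had 147, 144 and 137 CPM with M5 and 99.3, 93.8 and 99.9 CPM in untreated cells (0.54, SE 0.04, edgeR adjusted p = 7.5e-12).

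Among the integrins of focal adhesions, ITGA5, the fibronectin receptor subunit, averaged 65.6 ± 4.31 CPM with M5 and 36.1 ± 1.15 CPM in untreated cells, and ITGA2, the collagen receptor subunit, averaged 257 ± 7.24 and 152 ± 11.3 CPM in the same groups (SD, n = 3 each). Their log2 fold changes were 0.86 and 0.76 (SE 0.04 each). ITGB1, the shared beta partner, averaged 669 ± 11.3 CPM with M5 and 559 ± 38.8 CPM in untreated cells (0.26, SE 0.04, edgeR adjusted p = 1.6e-06). ITGA3, the alpha subunit that binds laminin-332 outside hemidesmosomes, averaged 519 ± 9.26 CPM with M5 and 463 ± 2.04 CPM in untreated cells (0.16, SE 0.03, edgeR adjusted p = 2.2e-05). This call of ITGA3 ended on library totals, at 0.045 with an adjusted p of 0.15, and on FPKM.

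**Figure D1:**
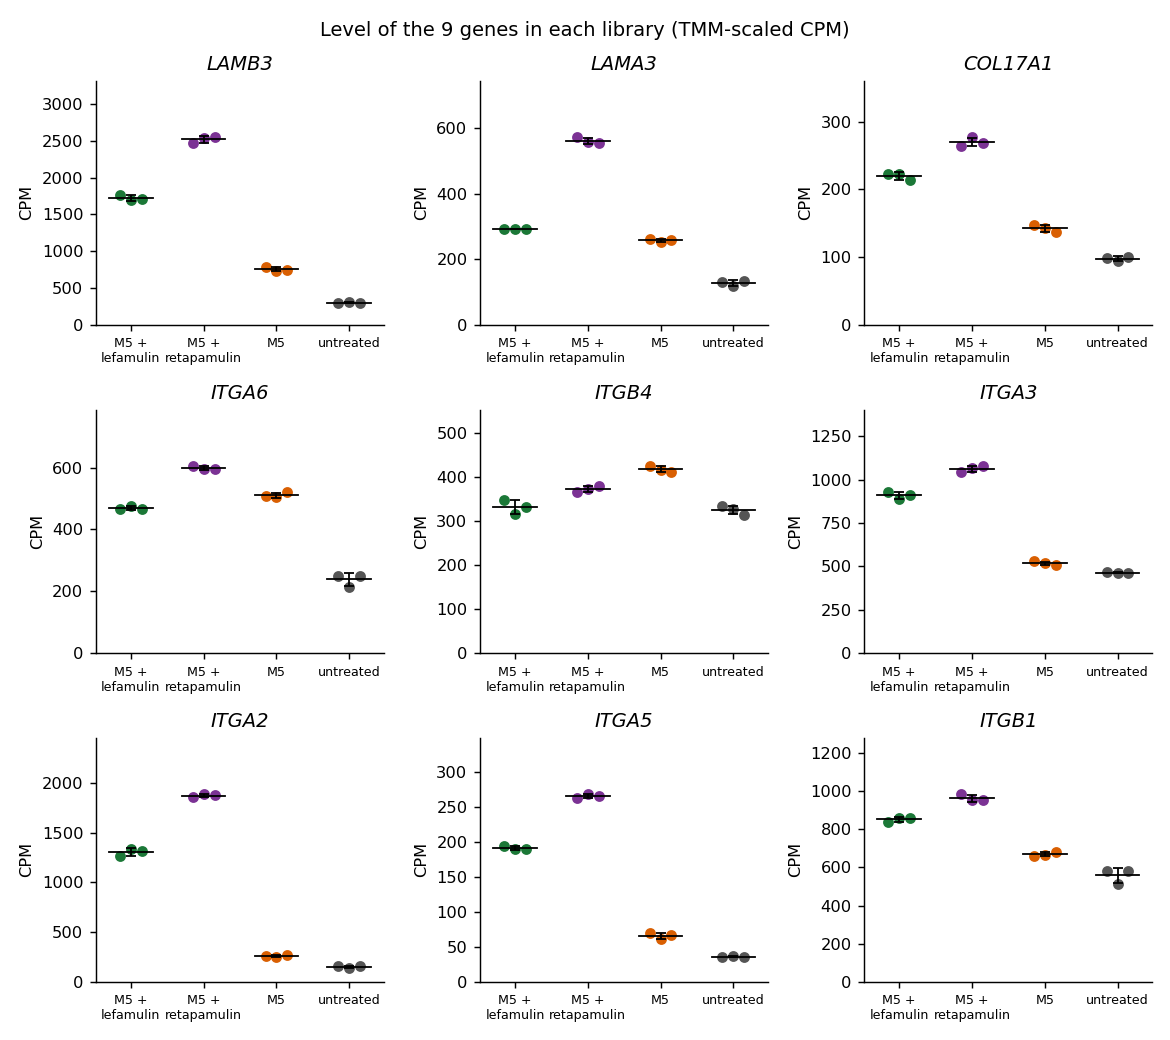
Level of each of the 9 genes in every library, in CPM on TMM-scaled library sizes; points are libraries, bars the mean and its SD over 3 libraries. LAMB3, ITGA2 and ITGA5 lie far above the M5 libraries in both compound groups, whereas ITGB4 is highest in the M5 libraries, at 412 to 425 CPM.

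The effect of lefamulin was read from M5 cells with and without it. The largest rises were in alpha genes of the collagen and fibronectin receptors and in the beta-3 laminin chain. COL17A1 of the hemidesmosome also rose, while both subunits of the hemidesmosomal integrin fell. Of the 9 genes 7 rose and 2 fell; of all genes tested 67.9% were called, 33.6% as higher and 34.3% as lower, and in 71.2% the groups did not overlap. Of the 9 genes 3 rose at least 2-fold, against 9.09% of all genes tested. The median log2 fold change was 0.63, against -0.00 over all genes.

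ITGA2 had 1266, 1339 and 1312 CPM with lefamulin, against 257, 250 and 264 CPM with M5 alone. This was a 5.08-fold rise (log2 2.34, SE 0.04, edgeR adjusted p = 2.7e-24), larger than in all but 1.93% of genes tested. ITGA5 had 195, 191 and 190 CPM with lefamulin, against 69.3, 60.9 and 66.6 CPM with M5 (log2 1.55, SE 0.04, edgeR adjusted p = 2.5e-20). ITGB1, with which both pair, averaged 853 ± 13.9 CPM with lefamulin and 669 ± 11.3 CPM with M5, a rise of 0.35 (SE 0.04), so the alpha genes rose by more than their partner. ITGA3 averaged 909 ± 18.9 CPM with lefamulin and 519 ± 9.26 CPM with M5 (0.81, SE 0.03, edgeR adjusted p = 3.8e-18).

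LAMB3 had 1765, 1691 and 1713 CPM with lefamulin, against 783, 735 and 741 CPM with M5 (1.19, SE 0.03, edgeR adjusted p = 5.3e-21). LAMA3 had 292, 291 and 292 CPM with lefamulin, against 262, 253 and 259 CPM with M5, a much smaller log2 fold change of 0.17 (SE 0.04, edgeR adjusted p = 2.1e-04). COL17A1 averaged 220 ± 5.61 CPM with lefamulin and 142 ± 5.30 CPM with M5 (0.63, SE 0.04).

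ITGB4 had 346.5, 315.8 and 331.7 CPM with lefamulin, against 425, 416 and 412 CPM with M5. It fell by 0.33 on the log2 scale (SE 0.03, edgeR adjusted p = 5e-09). ITGA6 had 465, 476 and 465 CPM with lefamulin, against 507, 505 and 520 CPM with M5, and fell by 0.12 (SE 0.04, edgeR adjusted p = 0.0097). The lefamulin libraries lay below all M5 libraries for both genes.

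For retapamulin the comparison was again with M5 alone, and it shares the M5 libraries with the one for lefamulin. Of the 9 genes 8 rose, with ITGA2, ITGA5 and LAMB3 the most, and ITGB4 fell. Of all genes tested 72.1% were called, 34.1% as higher and 38% as lower, and in 73.8% the groups did not overlap. Of the 9 genes 5 rose at least 2-fold, against 9.81% of all genes tested, and the median of the 9 was 1.04, against -0.05 over all genes. On library totals the median of all genes was -0.19, and rises made up 37.4% of all calls, in place of 47.3%.

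ITGA2 had 1852, 1885 and 1876 CPM with retapamulin, against 257, 250 and 264 CPM with M5, which is 7.28-fold higher (log2 2.86, SE 0.04, edgeR adjusted p = 5.1e-26). ITGA5 had 263, 269 and 266 CPM with retapamulin, against 69.3, 60.9 and 66.6 CPM with M5 (log2 2.02, SE 0.04, edgeR adjusted p = 7.4e-23). ITGA3 averaged 1063 ± 16.8 CPM with retapamulin and 519 ± 9.26 CPM with M5 (1.04, SE 0.03), and ITGB1 averaged 963 ± 18.4 and 669 ± 11.3 CPM in the same groups (0.53, SE 0.04). Retapamulin libraries lay above all M5 libraries for these 4 genes.

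LAMB3 had 2469, 2542 and 2547 CPM with retapamulin, against 783, 735 and 741 CPM with M5 (1.74, SE 0.03, edgeR adjusted p = 2.7e-24). LAMA3 had 571, 556 and 553 CPM with retapamulin, against 262, 253 and 259 CPM with M5 (1.12, SE 0.04, edgeR adjusted p = 1.4e-18). The fitted folds were 2.17 for LAMA3 and 3.35 for LAMB3, and the retapamulin libraries lay above all M5 libraries for both. COL17A1 averaged 270 ± 6.39 CPM with retapamulin and 142 ± 5.30 CPM with M5 (0.92, SE 0.04).

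ITGB4 had 367, 372 and 379 CPM with retapamulin, against 425, 416 and 412 CPM with M5, and fell by 0.17 on the log2 scale (SE 0.03, edgeR adjusted p = 1.3e-04). ITGA6 had 606, 595 and 594 CPM with retapamulin, against 507, 505 and 520 CPM with M5 (0.23, SE 0.04, edgeR adjusted p = 2e-05). The rise of ITGA6 was no longer called on log2 FPKM, where it was 0.092 to 0.093 with adjusted p of 0.0982 to 0.182.

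**Figure D2:**
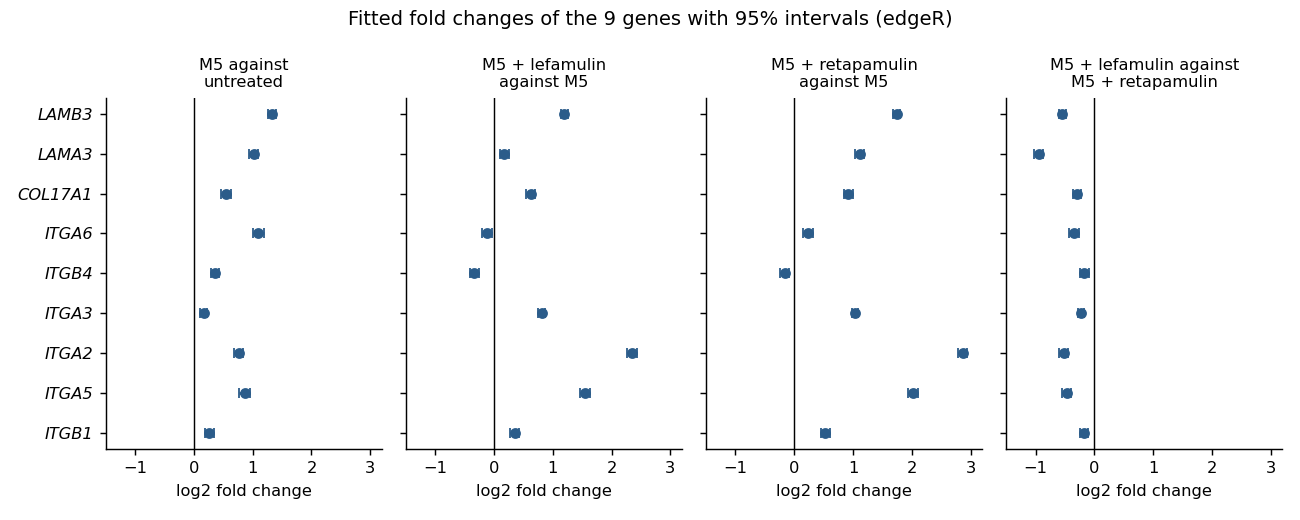
Fitted log2 fold changes of the 9 genes in 4 comparisons; points are edgeR estimates and bars their 95% intervals, with a line at no change. ITGA2 lies farthest to the right with both compounds, at 2.34 and 2.86, ITGB4 lies left of the line with both, and all 9 genes lie left of the line for lefamulin against retapamulin.

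The 2 related compounds were compared directly, both in the presence of M5. All 9 genes were lower with lefamulin than with retapamulin, and the libraries of the groups did not overlap for any of them. Of all genes tested 40% were called, 21.2% as lower and 18.8% as higher, and in 52% the groups did not overlap. None of the 9 differed 2-fold, as 0.739% of all genes tested did in this direction. Rises made up 47.0% of all calls by TMM, 36.8% by RLE size factors and 72.8% on library totals, so the balance over all genes depends on the scaling.

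LAMA3 differed the most, at 292, 291 and 292 CPM with lefamulin and 571, 556 and 553 CPM with retapamulin, a log2 difference of -0.94 (95% interval -1.02 to -0.87, edgeR adjusted p = 1.4e-15). LAMB3 differed by -0.55 (-0.61 to -0.49). The alpha-3 gene was therefore further apart between the compounds than the beta-3 gene, by intervals that do not meet. ITGA2 differed by -0.52 (-0.60 to -0.44), ITGA5 by -0.47 (-0.55 to -0.39), ITGA6 by -0.35 (-0.44 to -0.27), COL17A1 by -0.30 (-0.37 to -0.22) and ITGA3 by -0.23 (-0.28 to -0.17). The smallest differences were those of ITGB1, at -0.18 (-0.25 to -0.10), and ITGB4, at -0.17 (-0.24 to -0.10). These last 2 calls ended on library totals and on FPKM, where the differences were -0.087 and -0.079 on library totals, with edgeR and limma adjusted p from 0.0531 to 0.205.

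Against untreated cells, the lefamulin libraries with M5 were higher in 8 of the 9 genes and the retapamulin libraries with M5 in all 9, although ITGB4 turned sign there on library totals. With lefamulin 74% of all genes tested were called, 36.9% as higher and 37.1% as lower, and in 76.1% the groups did not overlap. With retapamulin 78.5% were called, 37.6% as higher and 40.9% as lower, and in 79.2% the groups did not overlap. At least 2-fold rises were seen in 5 and 7 of the 9 genes, against 12.4% and 13.3% of all genes tested. ITGA2 was 8.60-fold higher with lefamulin and M5 and 12.3-fold higher with retapamulin and M5 than in untreated cells. LAMB3 was 5.74-fold and 8.4-fold higher, ITGA5 was 5.31-fold and 7.37-fold higher, and LAMA3 was 2.29-fold and 4.4-fold higher. On library totals the median of all genes lay at -0.18 for lefamulin and -0.31 for retapamulin, in place of -0.02 and -0.06. The higher share among called genes was then 38.6% and 33.7%, in place of 49.9% and 47.8%.

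ITGB4 had the smallest fitted difference of the 9 genes in both. It averaged 331 ± 15.3 CPM with lefamulin and M5, 372 ± 6.22 CPM with retapamulin and M5, and 325 ± 9.78 CPM in untreated cells (SD, n = 3 each). The difference from untreated cells was 0.03 (95% interval -0.04 to 0.10, edgeR adjusted p = 0.43) with lefamulin and 0.20 (0.13 to 0.27, edgeR adjusted p = 1.2e-05) with retapamulin. Both turned negative on library totals, at -0.14 with an adjusted p of 0.00112 and at -0.057 with an adjusted p of 0.133, so no direction against untreated cells is given for this gene.

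Ratios of partner genes within a library do not depend on the scaling between libraries. With 3 libraries against 3 the exact two-sided permutation test cannot go under p = 0.1. Of the 28 ratios compared 26 reached that smallest value, without overlap between groups. Single genes did not overlap in 52% to 73.8% of all genes tested in these comparisons, and no share over other gene pairs was computed. The ratios also share genes and groups, so this count says nothing particular about them. The ratio of ITGA6 to ITGB4, on FPKM, which divides counts by gene length, was 1.52, 1.71 and 1.58 with lefamulin, 1.87, 1.81 and 1.77 with retapamulin, 1.35, 1.37 and 1.43 with M5, and 0.852, 0.742 and 0.900 in untreated cells. The alpha-6 mRNA was thus in excess of beta-4 in every treated library and below it in every untreated one. COL17A1 per ITGB4 was 0.813 ± 0.0444 with lefamulin, 0.887 ± 0.0226 with retapamulin, 0.417 ± 0.00980 with M5 and 0.368 ± 0.0195 in untreated cells (SD, n = 3 each).

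ITGA2 per ITGB1 was 0.784 ± 0.0111 with lefamulin, 0.996 ± 0.0276 with retapamulin, 0.197 ± 0.00354 with M5 and 0.139 ± 0.00175 in untreated cells, on FPKM (SD, n = 3 each). ITGA3 per ITGB1 was 0.868 ± 0.0316, 0.899 ± 0.0302, 0.632 ± 0.0210 and 0.677 ± 0.0482 in the same order of groups, and the libraries overlapped both between M5 and untreated cells and between the compounds (exact permutation p = 0.2 each). ITGA5 per ITGB1 was 0.209 ± 0.00619, 0.257 ± 0.00735, 0.0913 ± 0.00603 and 0.0604 ± 0.00621. ITGA6, which can pair with beta-1 as well as with beta-4, was highest per ITGB1 with M5, at 0.505 ± 0.00145, against 0.364 ± 0.00555 with lefamulin, 0.412 ± 0.00339 with retapamulin and 0.282 ± 0.00523 in untreated cells.

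As shares of the summed FPKM of the 4 alpha genes, ITGA3 made up 39.0% with lefamulin, 35.1% with retapamulin, 44.3% with M5 and 58.4% in untreated cells. ITGA2 made up 35.2%, 38.8%, 13.8% and 12.02% in the same order, and ITGA6 made up 16.4%, 16.1%, 35.5% and 24.4%. The largest share was held by ITGA3 in lefamulin, M5 and untreated cells and by ITGA2 in retapamulin cells. The largest SD of a share over 3 libraries was 1.67 percentage points.

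LAMA3 per LAMB3, on FPKM, was 0.0677 ± 0.00135 with lefamulin, 0.0890 ± 0.00313 with retapamulin, 0.137 ± 0.00308 with M5 and 0.170 ± 0.0145 in untreated cells (SD, n = 3 each). The alpha-3 mRNA was therefore below the beta-3 mRNA in all groups on this scale. The deposited FPKM divides LAMA3 by a length of 11324 bases, longer than each of its annotated transcripts named above, which lowers its level where shorter transcripts are made. This affects the level of LAMA3 against other genes and not its change between groups if the mix of transcripts is constant, which was not tested.

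**Figure D3:**
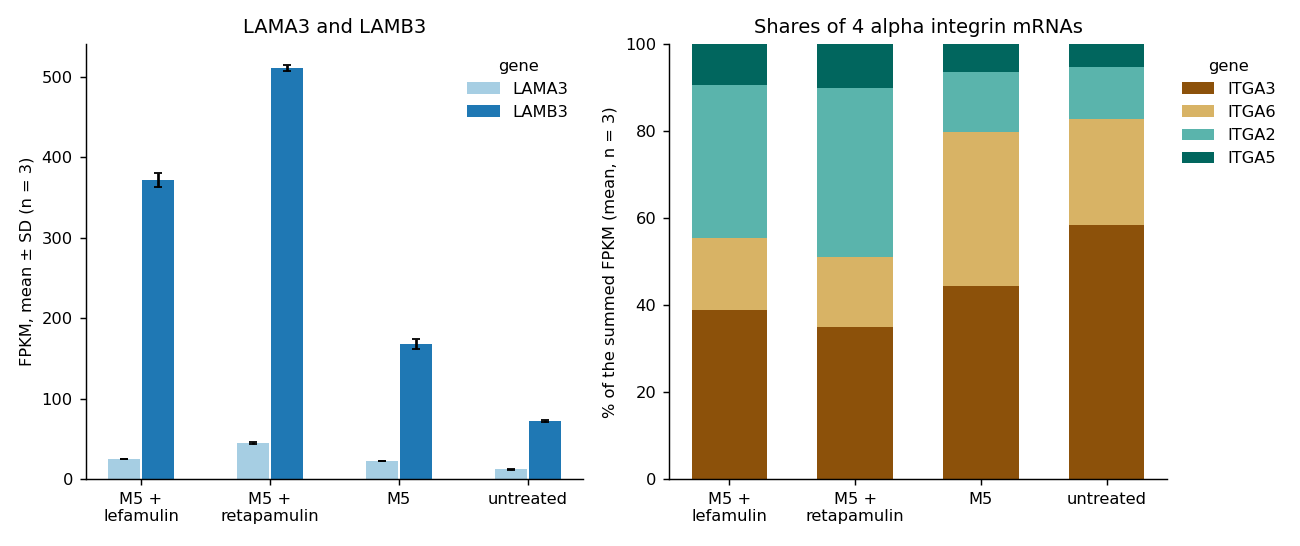
Left, FPKM of LAMA3 and LAMB3 in each group, bars showing the mean and SD of 3 libraries; right, mean share of each of 4 alpha integrin genes in their summed FPKM. LAMB3 reaches 372 and 511 FPKM with the compounds, and the ITGA2 share is 35.2% and 38.8% there, against 13.8% with M5.

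Per length, the order of the 9 genes differed between groups. With lefamulin LAMB3 was first at 372 ± 8.94 FPKM, followed by ITGB1 at 208 ± 2.96, ITGA3 at 180 ± 3.96, ITGA2 at 163 ± 4.45, ITGA6 at 75.6 ± 1.19, ITGB4 at 47.3 ± 2.23, ITGA5 at 43.4 ± 0.715, COL17A1 at 38.4 ± 1.12 and LAMA3 at 25.2 ± 0.117 FPKM, with no overlap between neighbours. With retapamulin LAMB3 was first at 511 ± 3.72 FPKM, and ITGB1 and ITGA2, at 221 ± 6.49 and 220 ± 0.594 FPKM, overlapped, as did LAMA3 and COL17A1 at the bottom, at 45.5 ± 1.26 and 44.3 ± 0.765 FPKM. With M5 alone ITGB1 and LAMB3 overlapped at the top, at 168 ± 1.69 and 168 ± 5.88 FPKM, and ITGA5 was last at 15.4 ± 0.916 FPKM. In untreated cells ITGB1 was first at 153 ± 10.6 FPKM, then ITGA3 at 103 ± 1.48 and LAMB3 at 72.7 ± 1.62, and ITGA5 was last at 9.17 ± 0.270 FPKM; ITGA2 and COL17A1 overlapped at 21.2 ± 1.54 and 19.1 ± 0.662 FPKM.

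The 9 genes did not share a single pattern over the groups. Likeness was measured as the Euclidean distance between the 4 group means of log2 CPM after each gene's own mean was subtracted, between each gene and the 9259 other genes with at least 10 CPM on average. Within the 9, the closest pair was ITGA3 and COL17A1 at a distance of 0.28, followed by LAMB3 and ITGA5 at 0.35, and the farthest was ITGA2 and ITGB4 at 3.07. ITGB4 had 5716 genes closer to it than its nearest member, ITGB1, and LAMB3 had 14 closer than ITGA5. The closest genes of all were TRIB1 and JUN for LAMB3, GPAT3 and MAST4 for LAMA3, RTN4R and NT5E for ITGA2, DDIT4 and GLRX for ITGA5, RNMT and RAPGEF2 for ITGA3, CASP4 and FSD1L for ITGA6, CNEP1R1 and CCDC93 for ITGB1, RP9 and PFDN2 for ITGB4, and JMJD6 and PICALM for COL17A1. Their distances ran from 0.02 to 0.24. TRIB1, for example, averaged 69.8 CPM with lefamulin, 99.6 with retapamulin, 31.7 with M5 and 11.98 in untreated cells.

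Of the other genes of hemidesmosomes, the plakins DST and PLEC and the tetraspanin CD151 are described singly. DST, which makes the plakin BPAG1e in keratinocytes, averaged 83.0 ± 2.98 CPM with M5 and 177 ± 18.5 CPM in untreated cells (log2 -1.09, SE 0.05, edgeR adjusted p = 9.7e-15). DST stayed below untreated cells with the compounds as well, at 85.9 ± 3.73 CPM with lefamulin and 96.5 ± 1.87 CPM with retapamulin. Its counts are per gene and do not separate BPAG1e from other DST transcripts. PLEC, which encodes plectin, the link of beta-4 to keratins, averaged 574 ± 16.1 CPM with lefamulin, 788 ± 3.08 CPM with retapamulin, 232 ± 10.5 CPM with M5 and 284 ± 15.5 CPM in untreated cells. Its log2 fold changes against M5 were 1.31 and 1.76 (SE 0.04 each), opposite in sign to those of ITGB4. The call of DST with retapamulin, at 0.22, ended on library totals (0.082, edgeR adjusted p = 0.185).

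Of 20 other integrin subunits listed, 18 were in the table and 11 passed the filter. With M5 against untreated cells 4 rose and 4 fell, where 28.3% of all genes tested were higher and 26.9% lower. ITGB6 and ITGB8, beta partners of alpha-v that bind latent TGF-beta, rose with M5: ITGB6 averaged 85.7 ± 2.60 CPM with M5 and 21.4 ± 1.68 CPM in untreated cells (2.00, SE 0.06), and ITGB8 averaged 115 ± 12.6 and 38.8 ± 3.38 CPM (1.56, SE 0.06). With lefamulin against M5 6 rose and 3 fell, where 33.6% of all genes tested were higher and 34.3% lower. The median of this list was 0.62 there, close to the 0.63 of the 9 genes, against -0.00 over all genes. With retapamulin against M5 3 of the 11 rose and 3 fell, where 34.1% of all genes tested were higher and 38% lower. The list median was 0.09, against -0.05 over all genes, so the retapamulin count says nothing particular about the list. ITGA1, an alpha subunit that binds collagen with beta-1 as alpha-2 does, averaged 23.5 ± 0.64 CPM with lefamulin, 42.6 ± 0.31 CPM with retapamulin and 10.4 ± 0.54 CPM with M5 (1.18 and 2.03 against M5, SE 0.07 and 0.06). ITGB6 fell by 1.20 with lefamulin and by 1.72 with retapamulin on the log2 scale (SE 0.06 each).

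Of 22 other basement membrane and matrix genes 17 passed the filter, and most were lower; these and the following counts stand against the shares of all genes called, given above for each comparison. With M5 against untreated cells 2 rose and 12 fell, with a median of -0.33. With lefamulin against M5 3 rose and 11 fell, with a median of -0.25, and with retapamulin against M5 3 rose and 10 fell, with a median of -0.45. TNC, the matrix glycoprotein tenascin-C, averaged 16.5 ± 0.56 CPM with lefamulin, 18.6 ± 0.22 CPM with retapamulin, 83.5 ± 1.36 CPM with M5 and 53.6 ± 3.70 CPM in untreated cells. It rose by 0.64 with M5 (SE 0.05) and fell by 2.34 and by 2.17 with the compounds (SE 0.05 each). LAMB1, a beta chain of laminins other than laminin-332, averaged 75.2 ± 1.21 CPM with lefamulin and 152 ± 2.30 CPM with M5 (-1.02, SE 0.05). Its level with retapamulin was similar to that with lefamulin, at 77.2 ± 3.52 CPM. LAMB2, another such beta chain, fell by 1.15 with M5 and rose by 0.22 with lefamulin and by 0.43 with retapamulin against M5 (SE 0.04 each). COL4A1, a collagen IV chain, averaged 53.2 ± 4.18 CPM with retapamulin and 129 ± 1.44 CPM with M5 (-1.28, SE 0.05). Its level with lefamulin was also below that with M5, at 76.3 ± 1.57 CPM.

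Of 23 genes of integrin adaptors and focal adhesions 22 passed the filter. With M5 against untreated cells 4 rose and 10 fell, or 3 and 15 on library totals, among them FLNA, an actin crosslinker, at 1589 ± 51.8 CPM with M5 and 2359 ± 71.5 CPM in untreated cells (-0.57, SE 0.03). With lefamulin against M5 15 rose and 2 fell, and with retapamulin against M5 17 rose and 3 fell, with medians of 0.33 and 0.53. FERMT1, the keratinocyte kindlin that binds integrin beta tails, averaged 273 ± 1.94 CPM with lefamulin, 411 ± 8.27 CPM with retapamulin and 147 ± 3.51 CPM with M5 (0.90 and 1.49 against M5, SE 0.04 each). TNS3, a tensin, averaged 52.6 ± 2.16 CPM with lefamulin, 48.1 ± 2.52 CPM with retapamulin and 137 ± 7.79 CPM with M5 and fell by 1.38 and by 1.51. Both genes were higher in untreated cells than with M5, FERMT1 at 173 ± 11.3 CPM and TNS3 at 178 ± 6.05 CPM.

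**Figure D4:**
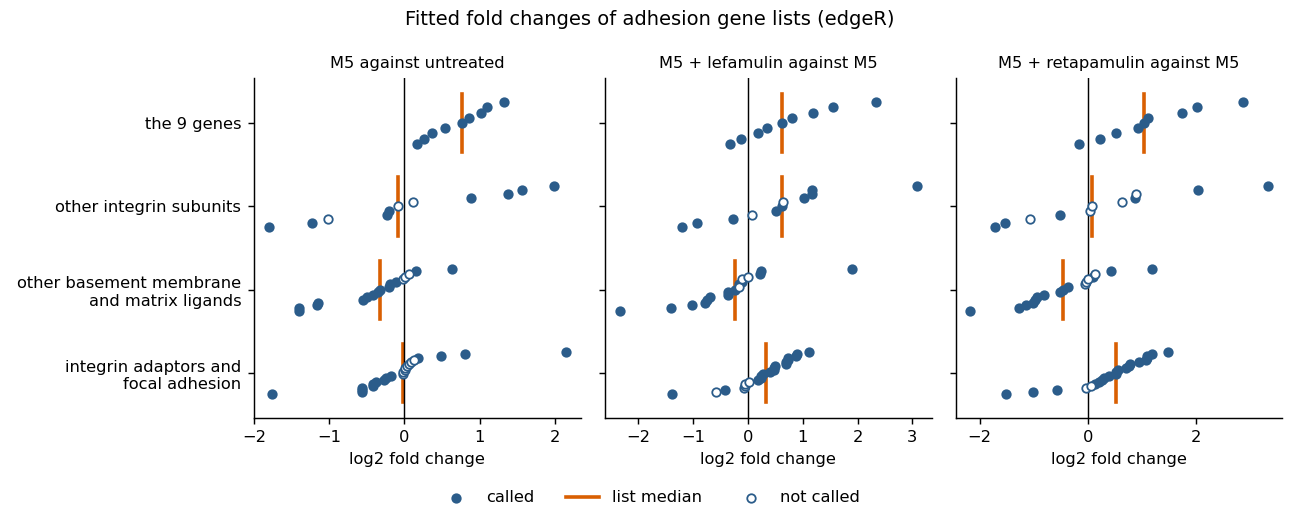
Fitted log2 fold changes of every tested gene in 4 lists, in 3 comparisons; filled points were called by edgeR, open points were not, orange bars are list medians, and the vertical offset within a list only separates points. The 9 genes lie right of 0 with M5, while the other basement membrane and matrix genes have medians of -0.33, -0.25 and -0.45.

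Lefamulin was set against retapamulin for these lists as well. Of the 22 focal adhesion genes 1 was higher and 11 were lower, of the 17 matrix genes 7 were higher and 4 lower, and of the 11 other integrin subunits 4 were higher and 2 lower. On library totals 3 focal adhesion genes were higher and 9 lower, and with RLE size factors 0 and 15. CD151, which binds laminin-binding integrins, averaged 114 ± 4.63 CPM with lefamulin and 148 ± 8.41 CPM with retapamulin (-0.38, SE 0.05, edgeR adjusted p = 6.1e-07), a gene chosen for mention after its values were seen.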

How the data were processed

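RNA sequencing was done in 12 libraries of HaCaT cells, 3 per group. The submitters' processing notes name HISAT2 and HTSeq; version, genome build and strand setting are not stated in the labels used. The extraction text of the labels speaks of mouse epidermis, against the HaCaT source of every sample, and was not used. The authors deposited raw counts per gene symbol, and a second table of FPKM. For 20422 genes checked, dividing counts by that FPKM gave a constant gene length after allowing for column totals.

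The counts were fitted with edgeR 4.0.16 (R 4.3.3): filterByExpr (14207 genes tested, 8338 not), TMM scaling, 1 quasi-likelihood fit to all 12 libraries with a mean per group, and Benjamini-Hochberg adjustment over all genes tested, called at an adjusted p under 0.05. The script was tested on simulated data. Standard errors (SE) and 95% intervals come from that fit; CPM use TMM-scaled library sizes. Between replicates the common biological coefficient of variation was 0.0449; all replicate pairs differed by more than sampling noise (chi-square per gene of 2.78 or more). Since the labels do not say that libraries came from separate cultures, p-values may measure technical spread only.

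The members and gene lists were chosen with earlier results of these data known. Named list genes are the 2 called genes that rose most and the 2 that fell most, per list and comparison, with at least 5 CPM in a group; not all are printed, and some genes of the lists are not reported here. Alternatives were RLE size factors, library totals, other filters, DESeq2 1.42.0, a replicate block, fits of 2 groups, limma 3.58.1 on log2 FPKM with pseudocounts of 1 and 0.1, and leaving out each library. Without strand information, overlapping and antisense genes are uncertain.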

Additional observations from a re-analysis of the deposited data

How the results depend on the processing

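The 54 fold changes of the 9 genes in 6 comparisons were recomputed under 22 alternatives each. In all 1165 values kept their direction and their side of the threshold, 15 were no longer called and 8 turned sign, and the count of members called in each comparison stayed within 1.5 times throughout. All 23 changes came from library totals alone or from FPKM, which rest on library totals. ITGB4 against untreated cells turned from 0.03 to -0.14 with lefamulin on library totals, -0.13 on log2(FPKM + 1) with or without the filter and -0.14 on log2(FPKM + 0.1), where the adjusted p ranged from 0.00112 to 0.0106. Over all alternatives it ranged from 0.00112 to 0.887. With retapamulin ITGB4 turned from 0.20 to -0.057 on library totals, -0.055 on log2(FPKM + 1) with or without the filter and -0.056 on log2(FPKM + 0.1), with adjusted p from 0.133 to 0.252. Calls were also lost for ITGA3 with M5 (4 alternatives), ITGA6 with retapamulin against M5 (3), and ITGB1 and ITGB4 for lefamulin against retapamulin (4 each). The cause was not tested, but the TMM factors lie between 0.975 and 0.982 in lefamulin, 0.915 and 0.931 in retapamulin, 1.00 and 1.02 in M5 and 1.09 and 1.11 in untreated libraries. Leaving out each library in turn changed none of 648 values in call or direction, and all 224 recomputed partner ratios kept their direction. Recounts of the other lists with RLE and library totals were chosen after seeing the data.

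Replicate numbers showed no clear pairing of the libraries, which 3 libraries per group cannot decide. Of 18 same-numbered pairs 4 deviated together with a correlation over 0.1 (range -0.28 to 0.35, against -0.45 to 0.28 for other pairs). Of 12 libraries 5 correlated best with a library of their own number. With the replicate block edgeR called 7780 genes for M5 against untreated, in place of 7839, and 9 of the 9 members in place of 9. Doses, times, the makeup of M5 and the independence of cultures limit what the fold changes stand for, and no protein was measured.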
